A study of Mus musculus with 9 samples.

Results

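The Nr4a orphan nuclear receptors Nr4a1, Nr4a2 and Nr4a3 were examined in the hippocampus of male ICR mice, an outbred stock, that had inhaled linalyl acetate (LA), an ester found in lavender and bergamot oils. Members were the transcript clusters whose gene symbol in the deposited signal table was Nr4a1, Nr4a2 or Nr4a3, and there were 3 such clusters of 22206 on the array. They are TC1500001067.mm.2 for Nr4a1, TC0200003560.mm.2 for Nr4a2 and TC0400000529.mm.2 for Nr4a3. The groups, named from the sample titles, were 1% LA, 10% LA and a vehicle of 1% Tween 80, with 3 arrays each. All animals were labelled 8 weeks old and were housed singly. Exposure was by whole-body inhalation for 7 days, and the tail suspension test, which scores how long a mouse hangs still, followed 30 min of inhalation in this protocol. No label says whether each array came from a separate mouse, so p-values measure the spread between these samples, which may be technical. The sample descriptions of 5 arrays (all vehicle arrays and 1% LA replicates 1 and 2) instead speak of saline or oleacein given by mouth followed by an injection, which 3 of them (vehicle replicate 3 and 1% LA replicates 1 and 2) name as LPS, a bacterial endotoxin. Those texts conflict with the titles and were not used to form groups.

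NR4A proteins are nuclear receptors whose ligand pocket is filled by side chains, so they act without a classical ligand and their output depends largely on how much of each is made. In neurons the 3 genes are immediate-early genes: calcium entry and cyclic AMP act through CREB, its CRTC coactivators, SRF and MEF2 to induce them within minutes of activity. Nr4a1 (Nur77) has been tied to synapse and metabolic control in active neurons, Nr4a2 (Nurr1) to the dopamine neuron programme and to long-term memory, and Nr4a3 (Nor1) shares their DNA site, the NBRE. In hippocampus, blocking the family impairs long-term memory in mice.

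The annotated promoters are shown first because activity reaches these genes through CREB sites there. The 250 bases before each gene's start, 5′ to 3′ on the gene's own strand, are from RefSeq (GRCm38.p6), and capitals mark every CRE core, TGACG or its reverse complement CGTCA, plus the MEF2 site of Nr4a2.
Nr4a1 promoter, chr15:101266596-101266845, plus strand: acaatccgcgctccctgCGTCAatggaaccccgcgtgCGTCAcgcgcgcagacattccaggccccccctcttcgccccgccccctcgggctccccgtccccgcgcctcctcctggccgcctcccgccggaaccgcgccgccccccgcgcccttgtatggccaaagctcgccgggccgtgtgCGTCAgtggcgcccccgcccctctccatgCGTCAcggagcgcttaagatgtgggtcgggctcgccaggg
Nr4a2 promoter, chr2:57124004-57124253, minus strand: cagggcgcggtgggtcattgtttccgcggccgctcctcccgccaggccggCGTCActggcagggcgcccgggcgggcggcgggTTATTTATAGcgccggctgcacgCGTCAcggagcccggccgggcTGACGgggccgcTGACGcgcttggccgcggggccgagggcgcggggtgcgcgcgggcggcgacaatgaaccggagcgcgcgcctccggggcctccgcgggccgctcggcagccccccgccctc
Nr4a3 promoter, chr4:48045055-48045304, plus strand: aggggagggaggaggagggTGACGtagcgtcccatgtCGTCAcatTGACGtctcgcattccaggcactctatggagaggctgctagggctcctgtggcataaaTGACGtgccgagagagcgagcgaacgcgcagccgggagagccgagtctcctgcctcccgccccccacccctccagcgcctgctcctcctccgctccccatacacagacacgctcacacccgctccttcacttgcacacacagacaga
Each of the 3 promoters held 4 CRE cores. At least 4 were found in 45 of 32851 promoters of the same length (0.137%), and at least 1 in 17.8%. The Nr4a promoters are rich in G and C, at 74.4% for Nr4a1, 80.0% for Nr4a2 and 63.6% for Nr4a3, and among the 9178 promoters of at least 60% GC the share with 4 or more was 0.37%. The cores of Nr4a1 lay in 2 pairs, the near pair at -69 to -65 and -40 to -36 from the start. Those of Nr4a2 lay between -200 and -107, and those of Nr4a3 between -231 and -143. The full palindrome TGACGTCA was in none of the 3 (1.55% of all promoters held it), nor was the CArG box of SRF (1.47%) or the NBRE AAAGGTCA (1.34%). Nr4a2 alone held a MEF2 site, at -167 to -158 (2.92% of all promoters), and the letters TATAAA (12.4%) on the other strand overlap it. These matches, searched on both strands, describe letters within this window and no binding was measured.

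**Figure D1:**
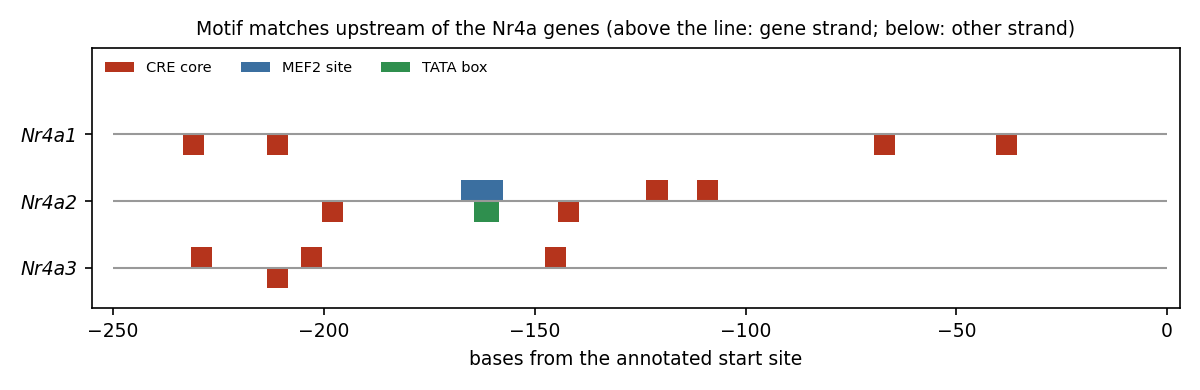
Positions of searched motifs in the 250 bases before the annotated start of Nr4a1, Nr4a2 and Nr4a3; the x axis gives the distance from the start in bases. Each promoter carries 4 CRE cores, and Nr4a2 alone carries a MEF2 site and an overlapping TATA box.

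Nr4a1 and Nr4a2 signals were lower on all 6 LA arrays than on any vehicle array, by a little over 1 log2 unit at either dose, while Nr4a3 overlapped between groups. No difference passed the adjusted threshold of 0.05, for these genes or for any other cluster. All 3 members cleared the filter on low signal, a mean of 5.98 log2 over the 9 arrays, with means of 8.80 for Nr4a1, 11.93 for Nr4a2 and 13.91 for Nr4a3. Probes differ in their response, so levels are compared only within a gene. In whole tissue, fewer cells that express a gene and less of its RNA per cell cannot be told apart.

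The log2 signal of Nr4a1 was 8.03, 8.69 and 8.53 on the 1% LA arrays (replicates 1 to 3), 8.26, 8.90 and 7.98 on the 10% LA arrays, and 9.99, 9.17 and 9.67 on the vehicle arrays. The lowest vehicle array, replicate 2, stood above the highest LA array, 10% LA replicate 2. Group means were 8.42 ± 0.34 at 1% LA, 8.38 ± 0.47 at 10% LA and 9.61 ± 0.41 in vehicle (SD, n = 3 each). At 1% LA Nr4a1 differed from vehicle by -1.19 log2 (SE 0.28, 95% interval -1.82 to -0.57), a signal 0.437 times that of vehicle, with an adjusted p of 0.356 by limma with Benjamini-Hochberg adjustment. At 10% LA the difference was -1.23 log2 (SE 0.28, interval -1.85 to -0.61, limma adjusted p 0.312). With both doses set against vehicle it was -1.21 log2 (SE 0.25, interval -1.75 to -0.67, limma adjusted p 0.203), the 22nd smallest p among 13323 clusters. The adjusted p thus stayed above the threshold in each comparison, although each interval of the difference lay below 0.

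The log2 signal of Nr4a2 was 10.71, 11.49 and 12.12 at 1% LA, 11.35, 11.44 and 12.03 at 10% LA, and 13.52, 12.28 and 12.45 in vehicle. Here the gap between the groups was narrow: 1% LA replicate 3 lay just below vehicle replicate 2, and vehicle replicate 1 stood about 1 log2 unit above the other vehicle arrays. Group means were 11.44 ± 0.71 at 1% LA, 11.61 ± 0.37 at 10% LA and 12.75 ± 0.67 in vehicle (SD, n = 3 each). The differences from vehicle were -1.31 log2 at 1% LA (SE 0.38, interval -2.15 to -0.47, limma adjusted p 0.356) and -1.14 log2 at 10% LA (SE 0.38, interval -1.98 to -0.30, limma adjusted p 0.312). Over both doses it was -1.23 log2 (SE 0.33, interval -1.96 to -0.50, limma adjusted p 0.203). In size Nr4a2 and Nr4a1 held the 16th and 17th lowest differences of the 13323 clusters in that comparison, while the p of Nr4a2 ranked 213th, with the wider SE. Without vehicle replicate 1 the 10% LA difference of Nr4a2 was -0.76 log2.

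The log2 signal of Nr4a3 was 14.18, 13.55 and 14.08 at 1% LA, 14.18, 13.52 and 14.40 at 10% LA, and 14.52, 13.57 and 13.20 in vehicle. Vehicle arrays held both the highest and the lowest of the 9 values. Group means were 13.94 ± 0.34 at 1% LA, 14.03 ± 0.46 at 10% LA and 13.76 ± 0.68 in vehicle (SD, n = 3 each). The differences from vehicle were 0.17 log2 at 1% LA (SE 0.34, interval -0.56 to 0.91, limma adjusted p 0.856) and 0.27 log2 at 10% LA (SE 0.34, interval -0.47 to 1.01, limma adjusted p 0.734). The estimates for Nr4a1 and Nr4a2 lie outside both intervals, while smaller changes in either direction lie inside them. The sign for Nr4a3 depends on vehicle replicate 3: without it the differences were -0.11 and -0.01 log2.

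**Figure D2:**
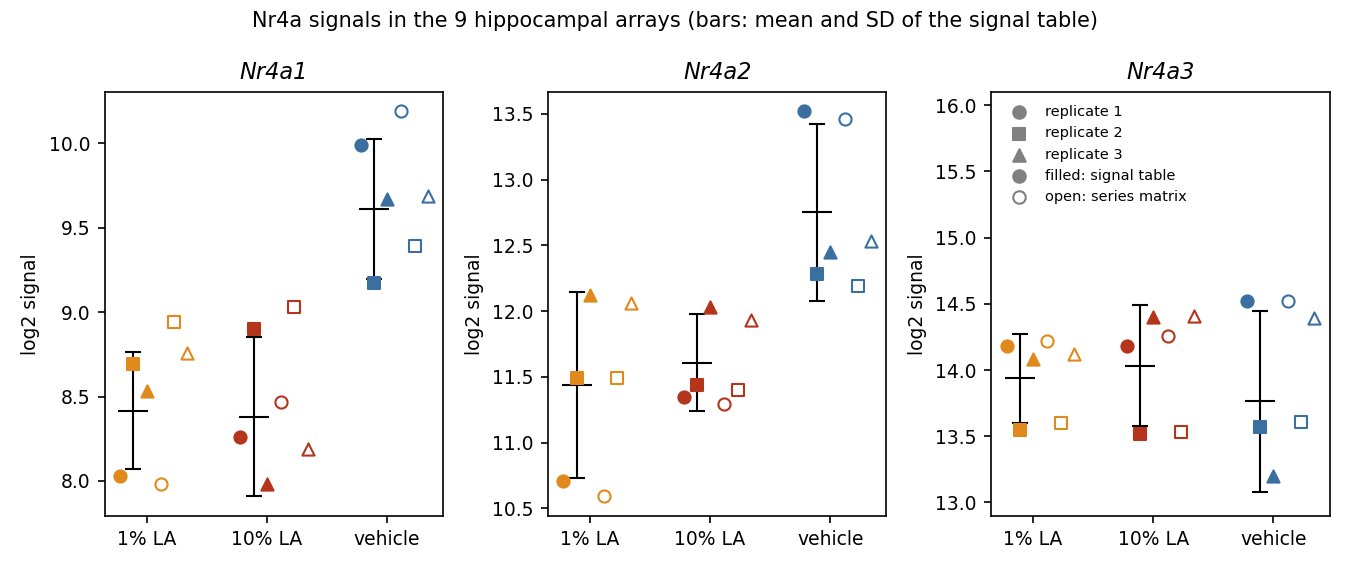
Log2 signal of Nr4a1, Nr4a2 and Nr4a3 on each of the 9 arrays, by group; filled symbols are the signal table, with its group mean and SD, and open symbols the series matrix. The y axis is log2 signal and each panel has its own range. All 6 LA arrays lie below all 3 vehicle arrays for Nr4a1 and Nr4a2, and the groups overlap for Nr4a3.

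Counts of members were read against all 13323 clusters tested. Nr4a1 and Nr4a2, but not Nr4a3, were lower without overlap of arrays at 1% LA, as were 7.43% of all clusters, at 10% LA (7.87%) and over both doses (3.23%). The same 2 members met the submitters' criteria on the present values, an unadjusted p under 0.05 with a fold above 2, at 1% LA, where 0.36% of clusters met them in the lower direction, at 10% LA (0.323%) and over both doses (0.255%). At the adjusted threshold no member passed in any comparison, and neither did any cluster (0%), although 1589 clusters (11.9%) at 1% LA, 1853 (13.9%) at 10% LA and 2295 (17.2%) over both doses had an unadjusted p under 0.05 in limma. In the authors' deposited table Nr4a1 carried folds of -2.16 at 1% LA and -2.49 at 10% LA, written as minus the inverse of treated over vehicle. In the authors' deposited table Nr4a2 carried folds of -1.89 and -1.96, short of the fold criterion, and Nr4a3 carried 1.4 and 1.43. The vehicle average of Nr4a2 was 12.37 log2 in the authors' deposited table, while the plain mean of the vehicle arrays was 12.75 log2. In the authors' deposited table no cluster of 22206 had an FDR p under 0.05 at either dose.

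The 2 doses differed little from each other in any member. The 10% LA minus 1% LA difference was -0.04 log2 for Nr4a1 (interval -0.66 to 0.59), 0.17 log2 for Nr4a2 (-0.67 to 1.01) and 0.10 log2 for Nr4a3 (-0.64 to 0.83), each with a limma adjusted p of 1. All 3 intervals hold 0, and they are wide, so a moderate dose difference in either direction lies inside them. In this comparison 271 clusters (2.03%) had an unadjusted p under 0.05 and none passed the adjusted threshold.

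**Figure D3:**
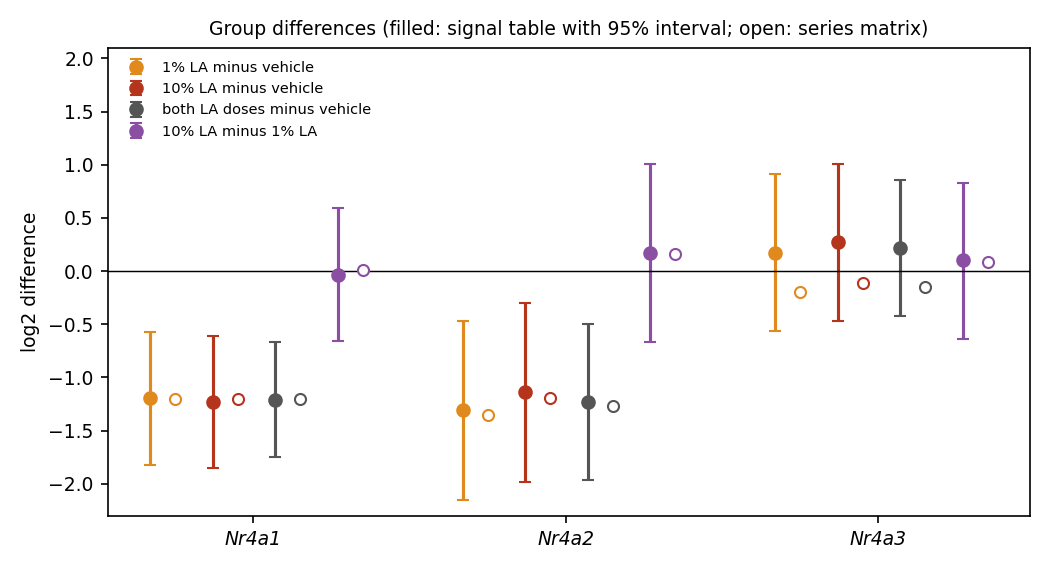
Log2 differences of Nr4a1, Nr4a2 and Nr4a3 for 1% LA minus vehicle, 10% LA minus vehicle, both doses minus vehicle and 10% LA minus 1% LA, with 95% intervals of the limma fit (filled, signal table) and the series matrix estimates (open). The intervals of Nr4a1 and Nr4a2 against vehicle lie below 0, from -1.82 to -0.57 for Nr4a1 at 1% LA for example, and those of Nr4a3 span 0.

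The deposited series matrix, a second set of log2 values labelled with the same samples, matched the signal table for 8 arrays (r at least 0.9993). It did not match for vehicle replicate 3 (r = 0.9811, 1778 clusters more than 1 log2 unit apart). For that array the best r with a column of another sample was higher, at 0.9891. Which column belongs to that sample was not given in the sources used here. For Nr4a1 that array read 9.67 in the signal table and 9.69 in the series matrix, and for Nr4a2 12.45 and 12.53, whereas for Nr4a3 it read 13.20 and 14.39. Series matrix differences over both doses were -1.20 log2 for Nr4a1 (limma adjusted p 0.633) and -1.27 log2 for Nr4a2 (limma adjusted p 0.776). They were close to those above and again without overlap of arrays (1.77% of all clusters were lower so). Since 8 arrays match in both sets, only vehicle replicate 3 could move these differences much. For Nr4a3 the series matrix gave -0.20 log2 at 1% LA, -0.11 at 10% LA and -0.15 over both doses, the opposite sign.

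**Figure D4:**
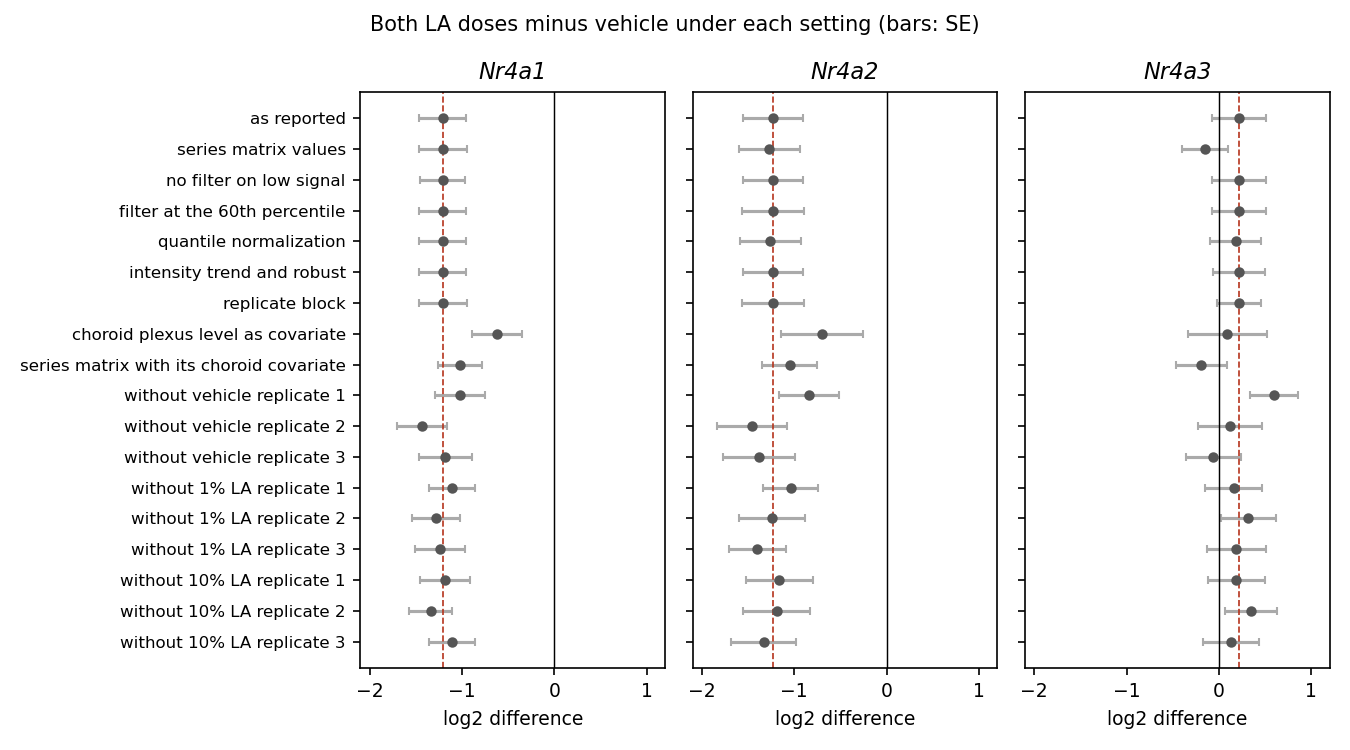
Log2 difference of each member, both LA doses minus vehicle, as reported and under each alternative setting; bars are standard errors and the dashed line marks the reported value. Nr4a1 stays between -1.43 and -0.62 and Nr4a2 between -1.46 and -0.70, while Nr4a3 lies on either side of 0.

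The members were also set against each other within an array, as a description with no test. The Nr4a1 minus Nr4a3 gap averaged -5.52 ± 0.65 log2 at 1% LA, -5.65 ± 0.93 at 10% LA and -4.15 ± 0.54 in vehicle (SD, n = 3 each). The Nr4a2 minus Nr4a3 gap averaged -2.50 ± 0.84, -2.43 ± 0.38 and -1.01 ± 0.27 log2 in the same groups. In the series matrix the first gap averaged -5.42, -5.50 and -4.42 log2, and the second -2.60, -2.53 and -1.45. There the groups overlapped in the first gap, with vehicle replicate 3 at -4.70 and replicate 2 of 1% LA and 10% LA at -4.66 and -4.50. Only the change of a gap between groups can be read, since a gap itself compares different probes. The Nr4a2 minus Nr4a1 gap was alike in all 3 groups, at 3.02, 3.23 and 3.14 log2.

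Across the 9 arrays Nr4a1 and Nr4a2 correlated with a Pearson r of 0.79 (exact permutation p = 0.00955, adjusted over the 3 pairs 0.0286) and a Spearman rho of 0.73 (exact permutation p = 0.0311, adjusted 0.0933). Over the 6 LA arrays alone r was 0.15 (exact permutation p = 0.747), on deviations from group means it was 0.42, and without vehicle replicates 1 and 3, the arrays farthest from the median of Nr4a1, it was 0.44. The series matrix gave 0.85 over the 9 arrays, 0.40 over the LA arrays and 0.59 on deviations. The relation was thus weaker within groups than across them in both tables. Nr4a1 and Nr4a3 gave r = -0.32 (exact permutation p = 0.398, adjusted 0.597) and rho = -0.34 (0.365, adjusted 0.548). On deviations from group means r was -0.22. Without the same vehicle arrays it was -0.91, and over the 6 LA arrays -0.92 (unadjusted exact permutation p = 0.00833). The series matrix gave 0.03 over the 9 arrays, -0.26 on deviations and -0.84 over the LA arrays (exact permutation p = 0.0514). Without vehicle replicate 1 and 1% LA replicate 1, the farthest arrays there, it gave -0.31. The inverse order of Nr4a1 and Nr4a3 was thus strong among LA arrays and weak over all 9. Nr4a2 and Nr4a3 gave r = 0.14 (exact permutation p = 0.72) and rho = -0.01 (0.992), and without the 2 farthest arrays, vehicle replicate 1 and 1% LA replicate 1, r was -0.22. Vehicle replicate 1 was the highest of the 9 arrays for all 3 members. It was the highest for 10.2% of all clusters tested.

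The genes whose pattern over the 9 arrays was most like each member were taken by Pearson r, as a description. For Nr4a1 they were Iffo1 (r = 0.953), Sms, the spermine synthase gene (0.95), Pacsin1, which encodes a synaptic endocytosis protein (0.948), Raph1 (0.943) and Arc, an immediate-early gene whose protein acts at synapses (0.943). For Nr4a2 they were Cbln4, a secreted synapse organizer (0.961), Elavl4, a neuronal RNA-binding protein (0.936), Radil (0.93), Rab3b, a synaptic vesicle GTPase (0.927) and Vwc2l (0.922). For Nr4a3 they were Wdr83os (0.964), Ncoa1, a nuclear receptor coactivator (0.953), Sos2, an activator of Ras (0.951), Ints2 (0.95) and Lrp12 (0.944). The 3 lists share no gene. In the series matrix Arc kept r = 0.939 with Nr4a1, while Sms had 0.605 and Raph1 0.593.

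Other activity-induced genes were lower more often than higher. Of 47 listed, 39 cleared the filter. Those that did not, and so were not tested, were Fos, Egr3, Npas4, Klf4, Maff, Csrnp1, Ier2 and Trib1. Over both doses 15 of the 39 (38.5%) were lower at an unadjusted p under 0.05 and none higher, beside 8.38% of all clusters lower and 8.85% higher; the median difference of the 39 was -0.36 log2, beside -0.015 over all clusters. None passed the adjusted threshold. At 1% LA 15 of 39 were lower (5.6% of all clusters, list median -0.29) and at 10% LA 17 of 39 (7.12%, list median -0.36). In the series matrix the count over both doses was 13, beside 3.31% of all clusters, and the median -0.22 log2. There 1 effector gene was higher. With the choroid plexus marker level, described further on, added to the fit, the counts were 5 at 1% LA (2.22% of all clusters in that fit), 10 at 10% LA (4.62%) and 8 over both doses (3.85%). Without 1% LA replicate 1 the count at 1% LA was 9 (4.77%).

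Among the activity-induced transcription factors 8 of 15 tested were lower and none higher, with a median of -0.42 log2 (-0.29 in the series matrix). Junb, an AP-1 subunit, differed by -1.29 log2 (SE 0.23), with log2 signals of 7.18, 7.39 and 6.95 at 1% LA, 6.97, 7.78 and 6.77 at 10% LA, and 8.49, 8.19 and 8.70 in vehicle. Its groups did not overlap. Klf10, a zinc finger repressor, differed by -0.83 log2 (SE 0.15), Nfil3, a bZIP repressor, by -0.59 (SE 0.16) and Ier5 by -1.0 (SE 0.29), each with a limma adjusted p of 0.203. Among the effector and feedback genes 7 of 24 were lower and none higher, with a median of -0.30 log2. In the series matrix 7 were lower and 1 higher, with a median of -0.13. Arc had log2 signals of 7.17, 7.66 and 7.16 at 1% LA, 7.23, 7.28 and 6.99 at 10% LA, and 9.18, 8.38 and 8.80 in vehicle. No LA array reached the lowest vehicle array, and the difference of -1.54 log2 (SE 0.20) had the smallest limma adjusted p of all clusters, 0.0879. Dusp1, a phosphatase that switches off MAP kinases, differed by -1.66 log2 (SE 0.44), Cyr61, a secreted matrix protein, by -1.13 (SE 0.19) and Sik1, a kinase that holds CRTC coactivators in the cytoplasm, by -0.81 (SE 0.17).

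The genes that carry activity signals to the Nr4a promoters were mixed in direction. Of 28 listed, 25 were tested over both doses, with a median of 0.12 log2. At an unadjusted p under 0.05, 1 was lower and 4 were higher, beside 8.38% of all clusters lower and 8.85% higher. Ep300, a histone acetyltransferase that CREB recruits, differed by 0.46 log2 (SE 0.16), and Prkaca, a catalytic subunit of protein kinase A, by 0.66 (SE 0.25). Crtc2, a CREB coactivator, differed by -0.45 log2 (SE 0.17). Creb1 itself differed by 0.17 log2 (SE 0.14). In the series matrix 1 of the 25 was higher and none lower at that p, and the values were 0.09 for Ep300, 0.53 for Prkaca, -0.26 for Crtc2 and -0.03 for Creb1.

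Partners and cofactors of NR4A proteins gave 2 of 11 lower (18.2%) and none higher, with a median of -0.07 log2. Of all clusters, 8.38% were lower and 8.85% higher over both doses at an unadjusted p under 0.05. Rxrb, a retinoid X receptor (the RXR family forms heterodimers with NR4A1 and NR4A2), differed by -0.71 log2 (SE 0.27), and Trim28, a corepressor scaffold, by -0.39 (SE 0.15). Rcor1, the CoREST corepressor that NR4A2 recruits in mouse glia, differed by -0.34 (SE 0.16). Of the dopamine neuron genes that NR4A2 drives in midbrain, 5 of 8 were tested and none had an unadjusted p under 0.05, with a median of -0.01 log2. Aldh1a1, a retinaldehyde dehydrogenase gene, differed by 0.33 log2 (SE 0.21), Vip, a neuropeptide gene, by -0.45 (SE 0.34; 0.16 in the series matrix), Ret, a neurotrophic factor receptor gene, by -0.03 (SE 0.17) and Th, which encodes the enzyme that commits tyrosine to dopamine, by -0.01 (SE 0.14). Endoplasmic reticulum chaperones, added as a list unrelated to activity, gave none lower and 1 of 12 higher, Xbp1, a transcription factor of the unfolded protein response, at 0.38 log2 (SE 0.16), with a list median of 0.08. Of the other nuclear receptors 3 of 29 were lower (10.3%, near the share of all clusters) and 1 higher, with a median of 0.06 log2. The higher one was Nr2f2, the orphan receptor COUP-TFII, at 1.38 log2 (SE 0.42), and the lower ones were Rxrb, Rarg (-0.49, SE 0.21) and Thra (-0.46, SE 0.20).

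**Figure D5:**
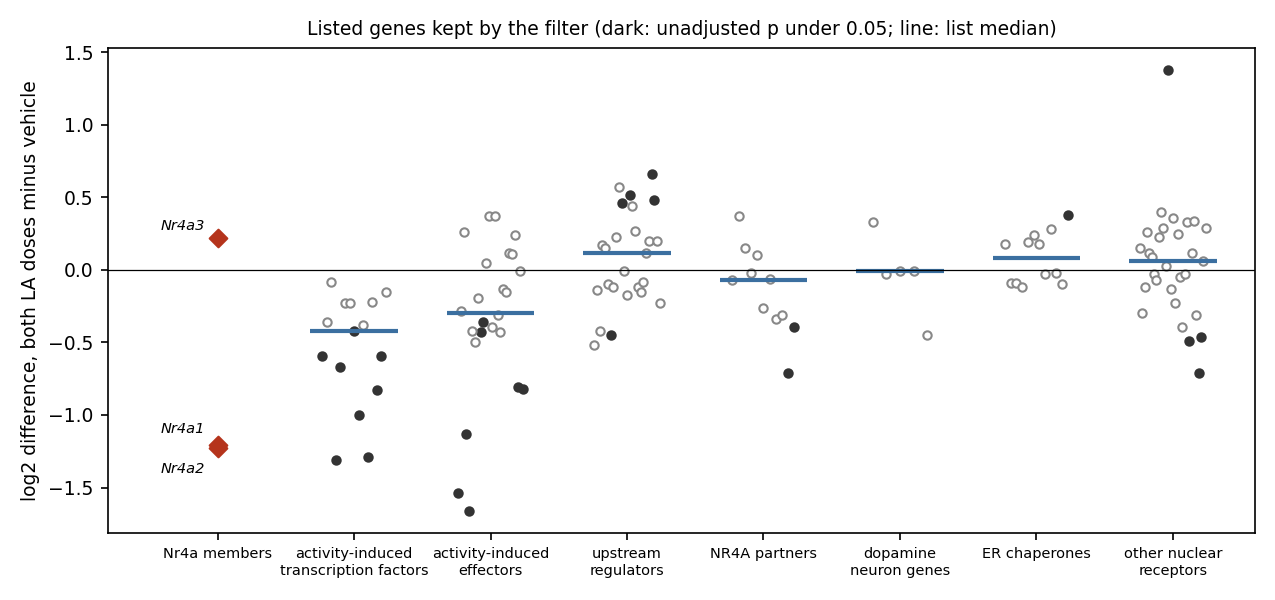
Log2 differences, both LA doses minus vehicle, of the tested genes of each list, 1 point a gene (dark where the unadjusted p was under 0.05), with a line at the list median and the Nr4a members as diamonds. The activity-induced lists lie mostly below 0, with medians of -0.42 and -0.30, and the other lists lie around 0.

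Levels of some markers of other tissue differed between the groups in the signal table, in part with overlap of arrays. Hippocampal neuron markers were present on every array, with means of 8.72 to 9.57 log2 at 1% LA, 9.06 to 9.36 at 10% LA and 8.97 to 9.60 in vehicle over 11 markers found. The mean of 16 choroid plexus markers was 10.83, 9.93 and 9.84 log2 at 1% LA, 10.43, 7.73 and 9.09 at 10% LA, and 6.63, 9.18 and 6.70 in vehicle. Ttr, the transthyretin gene that choroid plexus makes in bulk, ranged from 16.06 to 19.64 log2 on LA arrays and read 10.42, 19.13 and 11.63 in vehicle. Over both doses all 14 choroid plexus markers tested were higher at unadjusted p under 0.05 (8.85% of all clusters), median 2.33 log2. In the series matrix, where vehicle replicate 3 has a marker mean of 10.52, none were, with a median of 0.91. The array lowest in these markers, vehicle replicate 1, was highest in all 3 members, and the array highest in them, 1% LA replicate 1, was lowest in Nr4a2. Vehicle replicate 3, at 6.70 in the markers, was lowest in Nr4a3 (13.20), but in the series matrix it read 10.52 and 14.39. Vehicle replicate 2 had 9.18 in the markers, beside 7.73 and 9.09 on 10% LA replicates 2 and 3. Its Nr4a1 and Nr4a2 were higher than on either of those arrays. No test was made of these orders.

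A centred choroid plexus marker level was added to the fit, from -2.557 on vehicle replicate 1 to 2.091 on 1% LA replicate 1. It is close to the marker mean above but not equal to it. With that level Nr4a1 differed from vehicle by -0.45 log2 at 1% LA (SE 0.33, limma adjusted p 0.908). At 10% LA it differed by -0.79 (SE 0.26, limma adjusted p 0.549) and over both doses by -0.62 (SE 0.27, limma adjusted p 0.649). Nr4a2 differed by -0.65 (SE 0.54), -0.76 (SE 0.43) and -0.70 log2 (SE 0.44) in the same comparisons, and Nr4a3 by 0.00, 0.17 and 0.09. The values of Nr4a1 and Nr4a2 were thus closer to 0 than without it, and still negative. Those of Nr4a2, and that of Nr4a1 at 1% LA, lay within 2 SE of 0. In the signal table every 1% LA array exceeded every vehicle array in these markers, so there the marker level and the group cannot be told apart. This rests on vehicle replicate 3, whose marker mean in the series matrix exceeds those of 1% LA replicates 2 and 3 (9.94 and 9.86). With the series matrix values and their own marker level, a fit added after seeing the data, Nr4a1 differed by -0.91, -1.13 and -1.02 log2 in the same comparisons and Nr4a2 by -0.98, -1.11 and -1.05.

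Nr4a2 is also a known marker of subiculum, deep cortical layers and claustrum, regions that border the hippocampus. The mean of 14 other markers of these regions was 6.93, 7.70 and 7.50 log2 at 1% LA, 7.44, 7.63 and 7.29 at 10% LA, and 7.62, 7.71 and 7.90 in vehicle. The log2 of their summed signal overlapped between groups, at 12.91 to 13.1 at 1% LA, 12.99 to 13.21 at 10% LA and 13.04 to 13.19 in vehicle. Over both doses 4 of 12 tested were lower at an unadjusted p under 0.05 and none higher, with a median of -0.21 log2. They were Nxph3, a neurexin ligand (-1.05 log2, SE 0.24), Fn1, the fibronectin gene (-0.83, SE 0.23), Rxfp1, the relaxin receptor (-1.42, SE 0.41) and Cplx3, a complexin (-0.66, SE 0.27). Rxfp1 was lowest on 1% LA replicate 1, at 7.12 log2, the array that was also lowest in Nr4a2. In the series matrix 3 were lower and the median was -0.08; Nxph3 differed there by -0.81, Fn1 by -0.86, Rxfp1 by -0.90 and Cplx3 by -0.15. Cplx3 on vehicle replicate 3 read 7.23 log2 in the signal table and 5.84 in the series matrix. The part of these markers in the Nr4a2 difference was not tested. Microglia and macrophage markers, 12 found, had means of 7.98 to 8.26 log2 at 1% LA, 8.07 to 8.75 at 10% LA and 7.61 to 7.95 in vehicle, and over both doses 5 of 11 tested were higher and none lower (median 0.40 log2), beside 8.85% of all clusters higher. The series matrix gave 2 higher and a median of 0.22. Of the remaining lists over both doses, hippocampal neurons gave 1 of 10 higher, meninges and fibroblasts gave 3 of 9 higher, astrocytes 2 of 7, oligodendrocytes 2 of 7, striatum 1 of 6 and thalamus 1 of 6, with none lower, and endothelium and pericytes gave 2 of 13 lower and none higher, beside 8.38% of all clusters lower. Series matrix values gave none of these lists a member that was higher, and the members lower were 2 for hippocampal neurons, 3 for endothelium and pericytes, and 1 each for oligodendrocytes and thalamus. Their part in the Nr4a differences was not tested either.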

How the data were processed

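Log2 signals per transcript cluster from 9 hippocampus arrays were deposited by the authors after signal space transformation robust multi-chip analysis in Transcriptome Analysis Console 4.0.2, per the labels' design text and the submitters' processing notes. The deposited comparison tables hold the authors' group averages (log2), signed linear folds, and p-values with FDR p-values, per the file headers. For the array annotation, the build was not given in the sources used here. Clusters with a mean above the 40th percentile (5.98 log2) were kept, 13323 of 22206, with values otherwise as deposited. limma 3.58.1 (R 4.3.3) was fitted once over the 9 arrays with 1 mean per group, with Benjamini-Hochberg adjustment over the clusters kept and a threshold of 0.05; the code was tested on simulated data. Errors are the moderated standard errors. Arrays per group, 3, limit the precision. Of 258 listed symbols 250 matched 1 cluster. Members and gene lists were chosen with earlier results of these data known. Named were the members, the 5 clusters most like each, and of each list the up to 4 genes with the smallest p over both doses; Creb1 and the fourth deep cortex marker were added after their values were seen, and some genes that the rule names are not reported here. Promoters came from RefSeq tables. Same-numbered replicates did not deviate together.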

Additional observations from a re-analysis of the deposited data

How the results depend on the processing

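Nr4a1 and Nr4a2 stayed below vehicle at each dose and over both under every alternative run: the series matrix, no filter or a filter at the 60th percentile, quantile normalization, an intensity trend with robust estimation, the replicate block, the choroid plexus covariate, only the groups compared (not separate for both doses) and each array left out. Leaving out each array in turn moved Nr4a1 over -1.41 to -1.0 (1% LA), -1.49 to -1.03 (10% LA) and -1.43 to -1.02 log2 (both doses), and Nr4a2 over -1.65 to -0.92, -1.38 to -0.76 and -1.46 to -0.84. The one call gained was Nr4a1 over both doses without vehicle replicate 1 (-1.02 log2, limma adjusted p 0.0457). In that fit 1103 of 13323 clusters passed. The unadjusted limma p rose as high as 0.201 for Nr4a1 at 1% LA. For Nr4a2 it rose as high as 0.251 at 1% LA, 0.104 at 10% LA and 0.141 over both doses. It was under 0.05 in 17 of 18 settings for Nr4a1 at 1% LA. For Nr4a2 it was so in 17 of 18, 16 of 18 and 16 of 17. For Nr4a3 it was so in 0 of 18, 1 of 18 (0.0467) and 1 of 17 (0.0408). Nr4a3 changed sign in the series matrix (-0.20, -0.11 and -0.15; -0.26, -0.12 and -0.19 with the series matrix's own choroid plexus level added, a fit chosen after seeing the data) and ranged over -0.11 to 0.55, -0.01 to 0.65 and -0.06 to 0.60 with an array left out. In 10% LA minus 1% LA the sign changed for Nr4a1 in the series matrix (0.01; -0.30 to 0.16 with an array left out), for Nr4a2 with the covariate (-0.11, and -0.12 in the series matrix; -0.20 to 0.51 with an array left out), for Nr4a3 with an array left out (-0.10 to 0.35) and for the activity gene median (0.01 in the series matrix; -0.06 to 0.06). Clusters past the adjusted threshold were 0 in the reported fit; with an array left out they ranged from 0 to 222 at 1% LA, 0 to 533 at 10% LA and 0 to 1103 over both doses, the highest each time without vehicle replicate 1, and were 2 over both doses with the intensity trend. On deviations from group means, same-numbered arrays correlated at -0.169 to 0.168 and other arrays at -0.27 to 0.343. No pairing by number was thus seen, and whether same-numbered arrays shared a batch was not tested. With the replicate block Nr4a1 over both doses was -1.21 log2 (limma adjusted p 0.199), and the block changed no member's call. The filter at the 60th percentile tested fewer genes. The causes of the other changes were not tested.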

Other observations

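Genes that share the Nr4a promoters' density of CRE cores (TGACG on either strand) were also examined over both doses, with no test of the group. Besides the members, 32 genes with at least 4 cores in the 250 bases before a start were on the array and kept; 3 were lower and 3 higher at an unadjusted p under 0.05 (9.38% lower), and their median difference was 0.02 log2. Of 2780 genes with 1 to 3 cores 236 were lower (8.49%, median -0.02 log2), and of 6751 with none 554 were lower (8.21%, median -0.01 log2). For genes with several annotated promoters the highest count was taken.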
